A study of Mus musculus with 12 samples.

Results

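Mitotic spindle and kinetochore genes were followed in CD8+ T cells grown with or without dichloroacetate (DCA). The set holds 44 genes listed by name for their role in mitosis, and all 44 were found among the 56748 genes of the count table. All 44 also passed the filter on low counts, so each is among the 15688 genes tested. They fall into 7 groups by role: mitotic kinases and cyclins, the chromosomal passenger complex, the spindle checkpoint, the kinetochore and centromere, spindle motors with microtubule and cytokinesis proteins, condensin and chromosome structure, and the partners of the anaphase-promoting complex.

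RNA was sequenced in bulk from cells of 6 mice with a transgenic T cell receptor, 3 per experiment, and the cells of each mouse gave 1 untreated and 1 DCA library. Whole spleen cells were given their peptide for 24 hours (per the labels, 250 nM SIINFEKL in OT-1 cultures and 1 uM gp100 in pmel-1 cultures). They then grew for 6 days in IL-2 with 5 mM DCA, an inhibitor of pyruvate dehydrogenase kinases, or with none, and were sorted for CD8 on day 7. The 4 groups of 3 libraries are therefore untreated and DCA cells of experiment 1 and untreated and DCA cells of experiment 2. In experiment 1 the strain tag names OT-1 and the genotype tag C57BL/6-Tg(TcraTcrb)1100Mjb/J, while the titles name Pmel-1. In experiment 2 the titles and the strain tag both name Pmel-1, and the genotype tag gives the background B6.Cg-Thy1a/Cy with the transgene Tg(TcraTcrb)8Rest/J. Each group carries a transgenic receptor and was given a peptide, which by the tags differ between the experiments, and all share the IL-2 culture and the CD8 sort. The labels name no group without the peptide stimulus or the transgenic receptor, and the share of cells that use that receptor was not tested. No age or sex of the mice is stated in the labels used. Strain, technical batch and experiment coincide and cannot be told apart.

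Total counts per library ran from 28039699 to 41051066. The 8 transcripts fixed as markers of CD8 T cells summed to between 4751 and 6808 CPM (counts scaled to a common library size, here by the library total), with untreated and DCA ranges of 4751 to 5582 and 5532 to 6147 CPM in experiment 1 and of 6078 to 6808 and 5287 to 5561 CPM in experiment 2. The 4 CD4 T cell markers summed to between 5.01 and 10.04 CPM, mostly Zbtb7b (4.26 to 9.45 CPM), and Cd4 itself stayed at or below 0.638 CPM. In the values below, CPM is scaled with TMM factors, which adjust each library for differences in its RNA composition. These factors were 0.818 to 0.845 in untreated and 0.910 to 0.934 in DCA libraries of experiment 1, and 1.116 to 1.126 and 1.1498 to 1.174 in those of experiment 2. The factor thus moved with DCA in both experiments, and the main counts are also given under other scalings.

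When a cell enters mitosis, Cdk1 bound to its cyclins starts chromosome condensation and spindle assembly, and kinetochores built on the centromeres attach each chromosome to microtubules. Kinetochores without attachment signal through the spindle checkpoint, which holds back Cdc20, the activator of the anaphase-promoting complex, until all chromosomes are attached. That complex then marks securin and the B cyclins for destruction, separase opens the cohesin rings, and the cell divides. Most of these genes are transcribed in the G2 and M phases in dividing cells, and T cells divide quickly for days after a peptide stimulus. In bulk samples, fewer cells in these phases and less RNA per cell cannot be told apart.

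Promoters of this kind often hold a cell cycle genes homology region (CHR), read by the MuvB complexes, and CCAAT boxes, read by NF-Y. RefSeq promoter windows (build GRCm38.p6, from 250 bases before to 50 bases after the start of transcription) were found for 37 of the 44 genes, all but Ccna2, Aurkb, Incenp, Spc24, Kif20a, Tpx2 and Smc4. The CHR letters TTTGAA, searched on both strands, occurred in 26 of the 37 windows (70.3%), against 20.2% of the windows of 27025 genes. CCAAT letters, also on both strands, occurred in 27 of 37 (73%), against 41.1% of all genes, and both sets of letters in 23 of 37 (62.2%), against 7.97%. The E2F letters TTCCCGC occurred in 2 of 37 (5.41%), against 5.29%. None of these motifs contains another, and such matches describe the letters only.

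The 250 bases upstream of 4 starts are shown because they set the members at both ends of the response to DCA beside one that did not pass the test. Plk1 (chr7:122159185-122159434, plus strand) and Cdc20 (chr4:118437344-118437593, minus strand) had the lowest fold changes, Pttg1 (chr11:43425982-43426231, minus strand) was the one member called higher, and Top2a (chr11:99024190-99024439, minus strand) was not called. Each is written 5′ to 3′ in the direction of the gene, and capitals mark the CHR letters (TTTGAA, or TTCAAA where the match is on the other strand) and the CCAAT letters (CCAAT or ATTGG).
Plk1: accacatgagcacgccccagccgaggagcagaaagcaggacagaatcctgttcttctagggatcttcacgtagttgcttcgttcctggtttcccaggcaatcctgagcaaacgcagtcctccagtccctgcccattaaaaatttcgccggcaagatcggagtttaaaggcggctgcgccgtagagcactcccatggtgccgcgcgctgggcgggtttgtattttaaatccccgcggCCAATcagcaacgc
Cdc20: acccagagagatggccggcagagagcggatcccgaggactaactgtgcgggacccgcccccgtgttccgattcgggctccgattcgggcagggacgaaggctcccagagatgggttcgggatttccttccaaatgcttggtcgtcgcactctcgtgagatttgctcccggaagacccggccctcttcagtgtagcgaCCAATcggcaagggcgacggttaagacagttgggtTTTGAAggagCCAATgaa
Pttg1: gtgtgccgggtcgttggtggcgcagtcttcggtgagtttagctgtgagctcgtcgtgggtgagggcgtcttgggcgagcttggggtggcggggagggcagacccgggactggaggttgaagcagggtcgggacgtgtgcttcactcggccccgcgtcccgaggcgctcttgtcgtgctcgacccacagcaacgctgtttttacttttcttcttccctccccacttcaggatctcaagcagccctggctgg
Top2a: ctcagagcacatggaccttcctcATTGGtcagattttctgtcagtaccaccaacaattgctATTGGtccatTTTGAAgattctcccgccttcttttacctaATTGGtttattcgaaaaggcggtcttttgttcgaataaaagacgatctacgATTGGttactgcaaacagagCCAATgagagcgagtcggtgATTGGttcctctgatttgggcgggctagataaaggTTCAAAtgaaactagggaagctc
Plk1 had 1 CCAAT match at position -14 from the start, and its CHR letters began at position 31, inside the searched window and past the printed stretch. Cdc20 had CHR letters at -18 between CCAAT matches at -53 and -8. Top2a had 2 CHR and 6 CCAAT matches, and the Pttg1 window had no match to any of the 3 motifs. Both CHR and CCAAT letters were in 10 of the 13 called-lower members with a window and in 13 of the 23 that were not called.

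Over both experiments, 17 of the 44 genes fell with DCA, 1 rose and 26 did not pass the test (edgeR quasi-likelihood test with a term for experiment, Benjamini-Hochberg adjusted p under 0.05 over all genes tested). Of all tested genes, 9.8% were called lower and 7.01% higher, so 38.6% of this set against 9.8% of all genes was called lower. The set, its role groups and the other gene lists were chosen with earlier results of these data known, so such shares are descriptions only. The median log2 fold change was -0.16, against -0.015 over all tested genes. The fold changes of 40 of the 44 were below 0, against 51.7% of all tested genes. Plk1, Cdc20 and Kif20a had the lowest values (-0.66, -0.60 and -0.53), and Pttg1 the highest (0.45). With library totals in place of TMM factors, 10 were called lower and 2 higher, where 5.09% and 10.7% of all tested genes were, with 28 below 0 and a median of -0.06 beside 0.08 for all genes. After cyclic loess normalization (limma), 9 were called lower and 2 higher, where 6.6% and 7.85% of all tested genes were, with 27 below 0 and a median of -0.06 beside -0.03 for all genes. The 10 and the 9 called lower under these scalings were all among the 17, and the second gene called higher was Spc25.

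**Figure D1:**
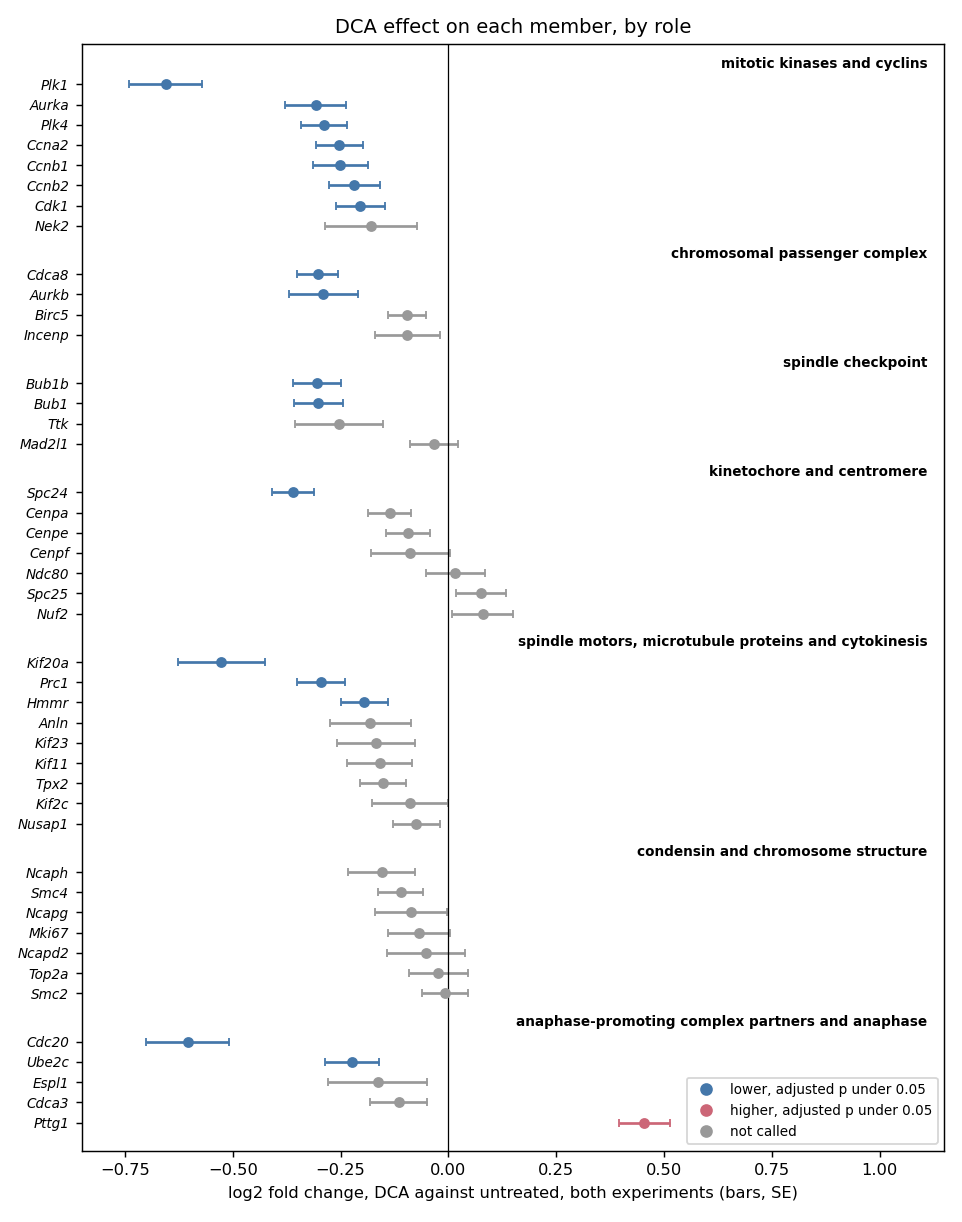
Log2 fold change with DCA over both experiments for each of the 44 genes, grouped by role, with bars of 1 SE (12 libraries, TMM scaling). Spindle checkpoint genes (median -0.28) and mitotic kinases and cyclins (median -0.25) have the lowest group medians. Condensin genes lie near 0 (median -0.07, which turns to 0.03 with library totals and 0.04 after cyclic loess), and Pttg1 alone was called higher at 0.45.

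Summed over the 44 genes, CPM dropped from untreated to DCA cells of each of the 6 mice. In experiment 1 it fell by 6.75% in mouse 1, fell by 11.1% in mouse 2 and fell by 14.3% in mouse 3, and in experiment 2 it fell by 8.54% in mouse 1, fell by 9.03% in mouse 2 and fell by 9.97% in mouse 3. Between 30 and 39 of the 44 genes had a lower CPM with DCA in a given mouse, where 48.5% to 53.1% of all tested genes did. Without TMM scaling, the 44 genes took 1.03% to 1.20% of a library's counts, and this share was lower with DCA in every mouse but mouse 1 of experiment 1, where it went from 1.17% to 1.20%. Of the 44 genes, 19 were lower in all 6 mice, against 10.8% of all tested genes.

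Mitotic kinases and cyclins held the most calls: 7 of 8 fell and Nek2 did not pass (log2 fold change -0.18, adjusted p = 0.281). With library totals 3 of the 8 were called, and after cyclic loess 2. Plk1, the polo-like kinase that acts on centrosomes, kinetochores and the midzone, was at 92.4, 93.2 and 86.1 CPM in the untreated libraries of experiment 1 and at 47.7, 44.8 and 58.0 CPM with DCA. Experiment 2 gave 148, 149 and 140 CPM untreated and 104, 112 and 101 CPM with DCA. The arms did not overlap in either experiment, and Plk1 fell by 36.5% over both (log2 fold change -0.66, SE 0.08, adjusted p = 0.000262).

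Plk4, the kinase that starts centriole duplication, was at 111, 101 and 108 CPM untreated and 86.8, 91.2 and 84.3 CPM with DCA in experiment 1. In experiment 2 the values were 92.1, 92.5 and 94.0 CPM untreated and 78.3, 74.9 and 74.1 CPM with DCA, so the arms again did not overlap (-0.29, SE 0.05, adjusted p = 0.00233). Cyclin A2 (Ccna2), a partner of the Cdk kinases from S phase to early mitosis, was at 215, 218 and 215 CPM untreated and 198, 193 and 164 CPM with DCA in experiment 1. It was at 248, 261 and 238 against 208, 206 and 199 CPM in experiment 2 (-0.25, SE 0.05, adjusted p = 0.00529). Every DCA library was below every untreated one of the same experiment for both genes.

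Aurora A (Aurka), a kinase of spindle poles, was at 362, 336 and 316 CPM untreated against 230, 232 and 250 CPM with DCA in experiment 1. Experiment 2 gave 310, 297 and 309 CPM untreated and 286, 275 and 289 CPM with DCA. The arms were apart in both experiments but by less in the second (-0.31 over both, SE 0.07, adjusted p = 0.0083). The B cyclins, which switch on Cdk1 in mitosis, fell by 0.25 (Ccnb1, adjusted p = 0.0141) and 0.22 (Ccnb2, adjusted p = 0.0196) on the log2 scale, and Cdk1, the kinase they bind, fell by 0.20 (adjusted p = 0.0207). These 3 had adjusted p-values of 0.0816, 0.234 and 0.156 with library totals and 0.215, 0.588 and 0.373 after cyclic loess, and Ccna2 0.0901 and 0.167. Aurka had 0.0703 after cyclic loess. With a term per mouse, Cdk1 had an adjusted p of 0.0636.

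**Figure D2:**
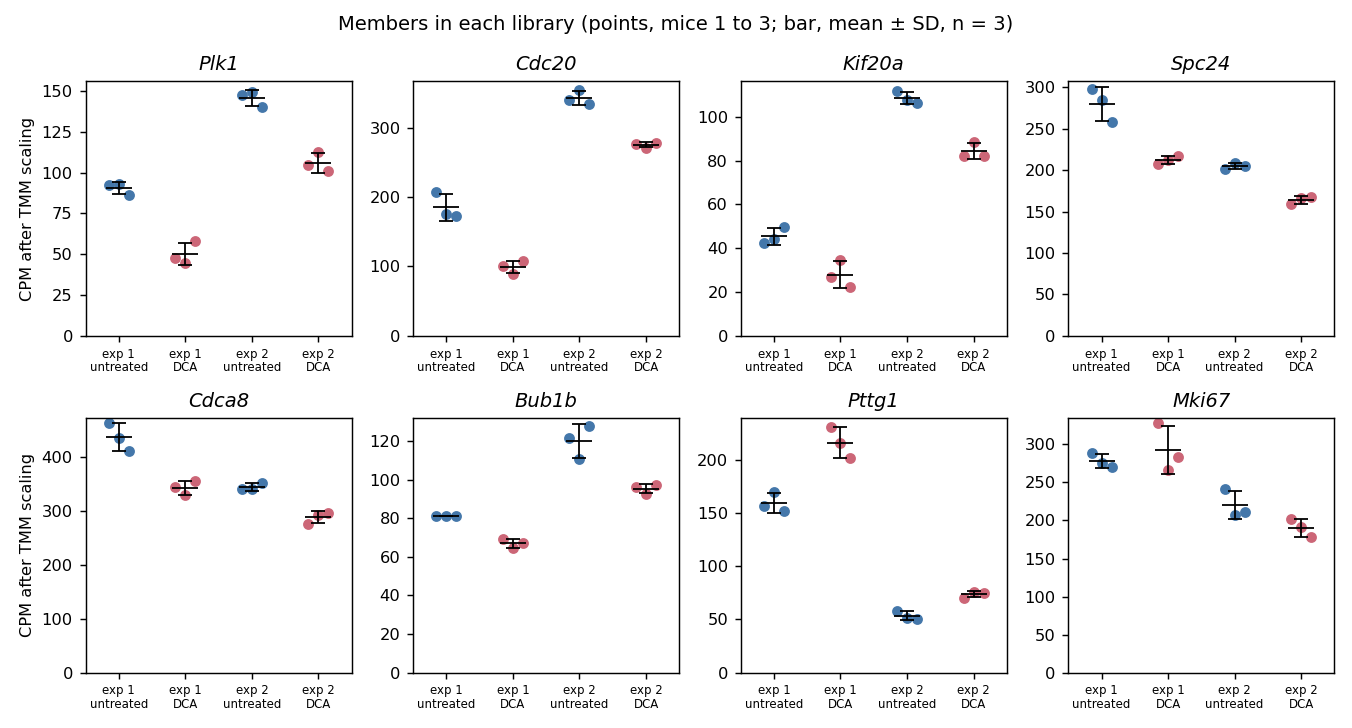
CPM after TMM scaling of 8 genes in each of the 12 libraries, with points for mice 1 to 3 and bars for the mean ± SD (n = 3). Plk1, Cdc20, Kif20a, Spc24, Cdca8 and Bub1b have every DCA library below every untreated one within an experiment, Pttg1 has every DCA library above, and the arms of Mki67 overlap in experiment 1.

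Among partners of the anaphase-promoting complex and anaphase genes, 2 of 5 fell and 1 rose. Cdc20, the activator that the spindle checkpoint holds back, was at 208, 175 and 173 CPM untreated against 101, 89.5 and 108 CPM with DCA in experiment 1. Experiment 2 gave 339, 354 and 334 against 277, 271 and 278 CPM. Cdc20 fell by 34.2% over both experiments (-0.60, SE 0.10, adjusted p = 0.000937), with no overlap of the arms in either.

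Pttg1 encodes securin, which keeps separase inactive until anaphase, and was the only member called higher. It went from 157, 170 and 152 CPM untreated to 230, 216 and 202 CPM with DCA in experiment 1, and from 58.1, 50.9 and 50.5 to 70.4, 76.0 and 74.5 CPM in experiment 2. The rise was 37.0% (0.45, SE 0.06, adjusted p = 0.000286), higher in 6 of 6 mice, and it stayed called with library totals and after cyclic loess. Securin's target, separase (Espl1), was the gene with the lowest level per length of the 44, at 1.88 RPKM over all libraries (CPM per kilobase of the deposited gene length). Espl1 was at 18.1, 16.6 and 15.0 against 17.5, 13.1 and 15.9 CPM in experiment 1 and at 20.4, 18.9 and 15.5 against 14.5, 18.3 and 13.95 CPM in experiment 2, and it did not pass the test (-0.16, 95% interval -0.41 to 0.08, adjusted p = 0.374).

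Ube2c, the ubiquitin-conjugating enzyme that works with the complex, was at 499, 484 and 486 CPM untreated and 442, 352 and 375 CPM with DCA in experiment 1, and at 474, 500 and 541 against 466, 463 and 469 CPM in experiment 2. The arms did not overlap in either experiment (-0.22, SE 0.06, adjusted p = 0.0224). Its adjusted p was 0.187 with library totals and 0.429 after cyclic loess. Cdca3, a trigger of mitotic entry, was not called (-0.12, adjusted p = 0.258).

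In the chromosomal passenger complex, which corrects faulty attachments at centromeres, 2 of 4 genes fell. Borealin (Cdca8) was at 464, 436 and 412 CPM untreated and 344, 329 and 355 CPM with DCA in experiment 1, and at 341, 341 and 353 against 275, 293 and 297 CPM in experiment 2 (-0.30, SE 0.05, adjusted p = 0.00084). Aurora B (Aurkb), the kinase of the complex, was at 241, 217 and 187 against 158, 163 and 144 CPM in experiment 1, where the arms were apart. In experiment 2 it was at 259, 300 and 299 against 265, 270 and 262 CPM, where they overlapped (-0.29 over both, SE 0.08, adjusted p = 0.0215, and 0.0989 with library totals). The other 2 subunits, survivin (Birc5) and the scaffold Incenp, had values of -0.10 each and were not called, with 95% intervals of -0.19 to -0.0033 and -0.26 to 0.07. With library totals both were just above 0.

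Of the 4 spindle checkpoint genes, the 2 Bub kinases fell. BubR1 (Bub1b), part of the complex that inhibits Cdc20, was at 81.1, 81.4 and 81.0 CPM untreated and 69.1, 64.6 and 67.1 CPM with DCA in experiment 1, and at 122, 111 and 128 against 96.0, 92.7 and 97.2 CPM in experiment 2 (-0.31, SE 0.06, adjusted p = 0.00219). Bub1, which recruits checkpoint proteins to kinetochores, was at 145, 132 and 133 against 101, 113 and 102 CPM and at 161, 168 and 168 against 136, 141 and 148 CPM (-0.30, SE 0.06, adjusted p = 0.00262). The arms were apart for both genes in both experiments, and both stayed called with library totals and after cyclic loess. Ttk, the kinase at the head of the checkpoint, had -0.25 with a wider error (SE 0.10, adjusted p = 0.105). Mad2l1, the Mad2 protein that binds Cdc20, had -0.03 (95% interval -0.15 to 0.08), lower in 3 of 6 mice.

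Kinetochore and centromere genes mostly did not pass: 1 of 7 fell. That gene, Spc24, was at 298, 284 and 258 CPM untreated and 207, 212 and 217 CPM with DCA in experiment 1, and at 202, 209 and 205 against 159, 166 and 168 CPM in experiment 2 (-0.36, SE 0.05, adjusted p = 0.000361), lower in 6 of 6 mice. Spc24 is 1 of the 4 subunits of the Ndc80 complex, which binds microtubules. The other 3 had values above 0 and were not called: Spc25 0.08 (95% interval -0.05 to 0.20), Nuf2 0.08 (-0.07 to 0.23) and Ndc80 0.02 (-0.13 to 0.16). Spc25, the direct partner of Spc24, was called higher with library totals (0.18, adjusted p = 0.0441) and after cyclic loess (0.21, adjusted p = 0.0206). The centromeric histone Cenpa was at 671, 713 and 726 against 681, 580 and 622 CPM in experiment 1 and at 462, 501 and 522 against 461, 462 and 453 CPM in experiment 2 (-0.14, SE 0.05, adjusted p = 0.0749). The arms of Cenpa overlapped in experiment 1. The group's median of -0.09 became 0.013 with library totals and 0.037 after cyclic loess. The motor Cenpe and the large kinetochore protein Cenpf had -0.09 each.

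Of 9 motor, microtubule and cytokinesis genes, 3 fell. Prc1, which bundles the microtubules of the midzone, was at 318, 303 and 338 CPM untreated and 257, 249 and 228 CPM with DCA in experiment 1, and at 205, 207 and 194 against 169, 183 and 175 CPM in experiment 2 (-0.30, SE 0.06, adjusted p = 0.00256). Kif20a, a midzone kinesin needed for cytokinesis, was at 42.3, 44.0 and 49.8 against 27.0, 34.8 and 22.2 CPM in experiment 1 and at 112, 108 and 106 against 82.2, 88.5 and 82.1 CPM in experiment 2 (-0.53, SE 0.10, adjusted p = 0.00282). Neither gene's arms overlapped. The annotation places 29.3% of Kif20a exon bases opposite exons of Cdc23, a subunit of the anaphase-promoting complex that also fell (-0.40, adjusted p = 0.0212), and without a stated strand setting their reads could not be separated. Exon overlap on the opposite strand also covered 12.5% of Ccna2 (with Exosc9), 11.1% of Prc1 (with Rccd1) and 13.4% of Ncapg (with Lcorl), and less than these for the other overlapping genes but Ube2c, whose partner Tnnc2 had 1 count in all.

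Hmmr, a spindle pole and microtubule protein, was at 273, 245 and 279 against 215, 223 and 218 CPM in experiment 1 and at 206, 201 and 224 against 194, 193 and 198 CPM in experiment 2 (-0.19, SE 0.05, adjusted p = 0.0224). The arms did not overlap, but the adjusted p was 0.237 with library totals, 0.429 after cyclic loess and 0.0641 with a term per mouse. The other 6 had values between -0.18 (Anln, the cytokinetic ring protein anillin) and -0.07 (Nusap1) and were not called. Kif11, the motor that separates the spindle poles, was at -0.16 and lower in 6 of 6 mice (adjusted p = 0.173). Tpx2, the activator of Aurora A, was at -0.15 (adjusted p = 0.065).

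No condensin or chromosome structure gene was called among 7 (edgeR), and 1 of the 7 had an unadjusted p under 0.05. DESeq2 called none of them either. Smc4, a core ATPase of condensin, was at 627, 592 and 550 against 595, 512 and 515 CPM in experiment 1 and at 448, 415 and 441 against 405, 398 and 417 CPM in experiment 2 (-0.11, SE 0.05, adjusted p = 0.162). Ncaph, the subunit that closes the condensin ring, was at 97.3, 79.2 and 93.8 against 81.3, 96.4 and 70.6 CPM and at 118, 125 and 124 against 103, 111 and 108 CPM (-0.16, SE 0.08, adjusted p = 0.191). Arms overlapped in both experiments for Smc4 and in experiment 1 for Ncaph.

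Mki67, the coat protein of mitotic chromosomes that is widely used to mark dividing cells, was at 289, 275 and 271 CPM untreated and 328, 267 and 283 CPM with DCA in experiment 1, and at 242, 208 and 211 against 202, 192 and 178 CPM in experiment 2. Its fold change was -0.07 (95% interval -0.22 to 0.08, adjusted p = 0.585), lower in 4 of 6 mice. Top2a, the topoisomerase that untangles sister chromatids, had -0.02 (95% interval -0.17 to 0.12). These intervals do not reach the fold changes of Plk1, Cdc20 or Kif20a. All 7 genes of the group were below 0 with TMM factors, but 2 of 7 were with library totals and 1 of 7 after cyclic loess.

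**Figure D3:**
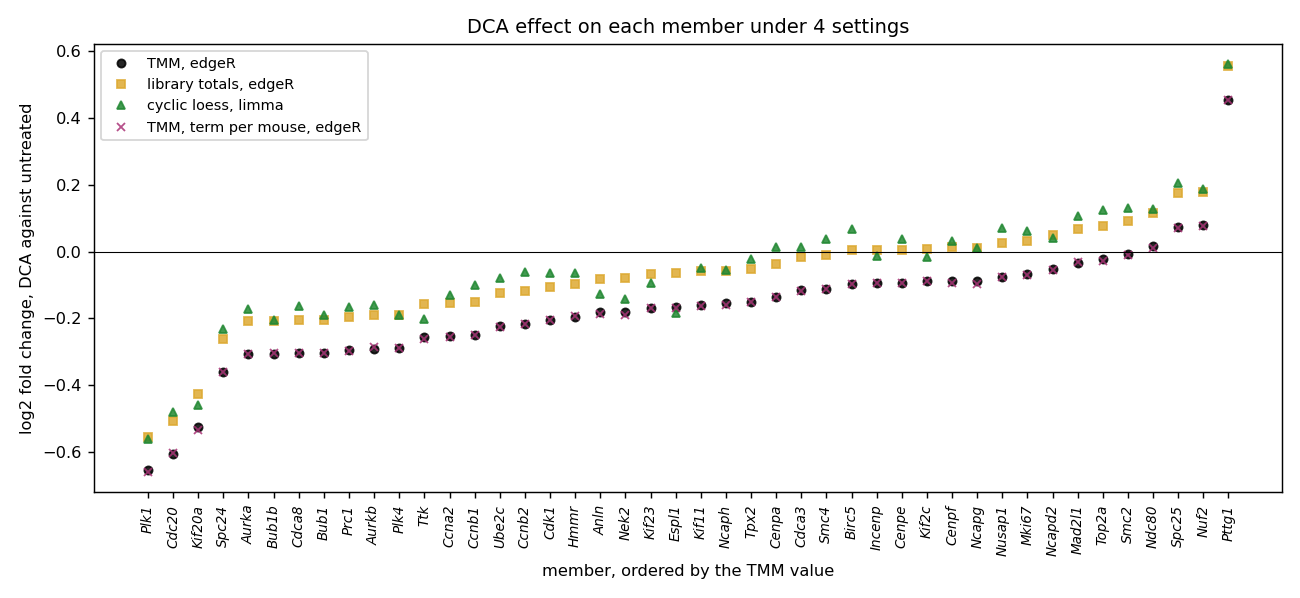
Log2 fold change with DCA over both experiments for each of the 44 genes under 4 settings: TMM factors, library totals, cyclic loess and a term per mouse. Library totals and cyclic loess both move the median from -0.16 to -0.06, with 28 and 27 of 44 genes below 0 where 40 were, and the term per mouse leaves it at -0.17. Minus the median of all tested genes, the members' median is -0.147 with TMM factors, -0.146 with library totals and -0.031 after cyclic loess.

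Of the 17 genes called lower, 9 (Plk1, Cdc20, Kif20a, Spc24, Bub1b, Bub1, Cdca8, Prc1 and Plk4) were called, as was Pttg1, with the same sign under each of the 23 other settings that kept the experiment as a term. With no such term, none of the 44 was called (edgeR), since the difference between the experiments then entered the spread. A term per mouse gave 15 lower and 1 higher, with Cdk1 and Hmmr lost, where 7.4% and 5.95% of all tested genes were called. The authors' deposited table, from their test of DCA, lists 10 of the 44 lower and 1 higher at a false discovery rate under 0.05, where 5.42% of its 15067 genes are lower. In the authors' deposited table Plk1 has a log2 fold change of -0.65 (false discovery rate 0.000599), Cdc20 -0.60 (0.00249), Pttg1 0.46 (0.000984) and Mki67 -0.06 (0.853).

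Each experiment was also tested alone, as a contrast of the fit over all 12 libraries. In experiment 1, 15 of the 44 fell and Pttg1 rose, where 11% of all tested genes were called lower and 5.67% higher, and the median was -0.16. With library totals experiment 1 had 11 lower, where 5.23% of all tested genes were, and a median of -0.022. After cyclic loess it had 7 lower, where 6.64% of all tested genes were, and a median of 0.0028, on the other side of 0. In experiment 2, 7 fell and Pttg1 rose, where 2.2% of all tested genes were called lower, 2.37% higher and 4.57% either way, and the median was -0.11. Plk1, Plk4, Cdc20, Spc24, Cdca8 and Bub1b fell in both, 9 genes in experiment 1 alone, and Ccna2 in experiment 2 alone. In experiment 1, 19 members had every DCA library below every untreated one (18% of all tested genes), in experiment 2, 21 did (14.6% of all tested genes), and 13 did in both (6.63% of all tested genes). Fitted on its own 6 libraries, each experiment gave 10 lower and 1 higher, where 5.13% of tested genes were lower in the first and 4.51% in the second. The unequal counts of 15 and 7 were thus not kept. These fits also filtered and scaled the libraries anew, and the reason for the change was not tested. The 7 calls of experiment 2 became 2 with a term per mouse (Plk1 and Spc24), 2 with library totals or cyclic loess, and 12 with DESeq2. Of all tested genes, 1.41% were called lower in experiment 2 with a term per mouse, 1.34% with library totals, 1.31% after cyclic loess and 5.7% with DESeq2. Those 7 calls also became 1 without untreated replicate 2 or DCA replicate 1 of experiment 2, 2 without DCA replicate 2, and 4 without untreated or DCA replicate 3. The share of all tested genes is not given for these last fits.

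**Figure D4:**
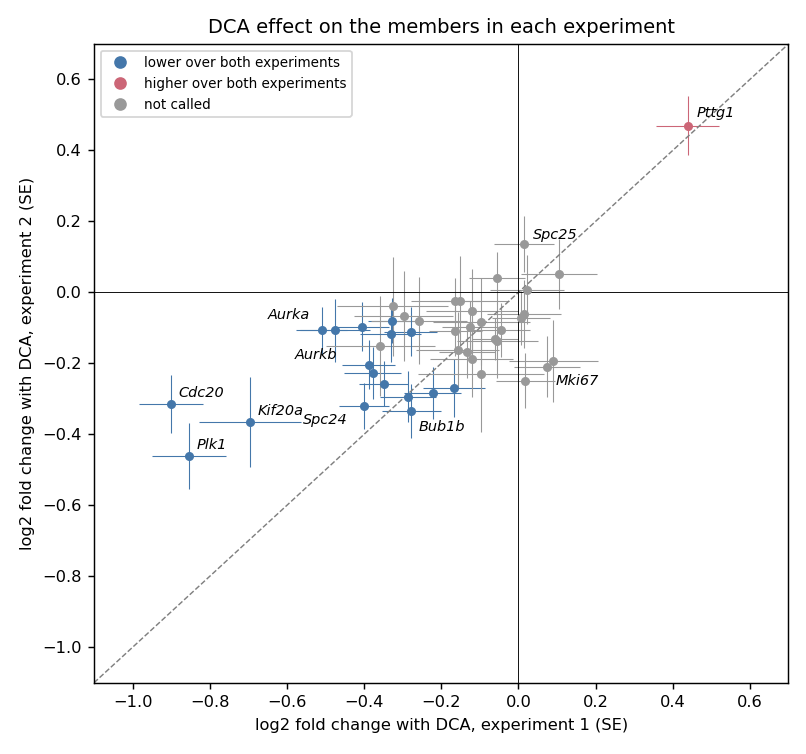
Log2 fold change with DCA in experiment 1 (horizontal) and experiment 2 (vertical) for the 44 genes, with bars of 1 SE. Cdc20, Plk1, Kif20a, Aurka and Aurkb lie left of the dashed line of equal change, Pttg1 lies on it at 0.44 and 0.47, and no member was called by edgeR for the difference itself.

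The difference of the DCA effect between the experiments was tested for each gene. None of the 44 was called by edgeR, where 0.331% of all tested genes were (0.051% lower and 0.28% higher in experiment 2). An unadjusted p under 0.05 was found for 8 of the 44 and for 2226 of the 15688 tested genes. The 2 smallest p-values belonged to Cdc20, with -0.90 in experiment 1 and -0.31 in experiment 2 (difference 0.59, SE 0.12, adjusted p = 0.0522), and Aurka, with -0.51 and -0.11 (difference 0.40, SE 0.09, adjusted p = 0.0764). DESeq2 called both (adjusted p = 0.00317 and 0.0139), where it called 0.892% of all tested genes lower and 2.03% higher. Limma-voom called Cdc20 (adjusted p = 0.0339), where it called 0.0446% lower and 0.446% higher. Over all settings the adjusted p ranged from 0.00245 to 0.276 for Cdc20 and from 0.0139 to 0.359 for Aurka. Leaving out untreated replicate 3 of experiment 1 brought both under the threshold (0.0256 and 0.0332), where 0.336% of tested genes were lower and 0.989% higher. Leaving out DCA replicate 3 of experiment 1 did so for Cdc20 (0.0422), where 0.055% were lower and 0.422% higher.

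More of the genes were called between the untreated cells of the 2 experiments than between the arms. Against experiment 1, 24 of the 44 genes were lower and 14 higher in experiment 2 (adjusted p under 0.05), where 25.2% of all tested genes were lower and 26.7% higher (51.8% in all). In the DCA arms 21 were lower and 14 higher, where 24.1% and 28.1% of all tested genes were (52.3% in all). With library totals the untreated split was 12 lower and 21 higher (15.2% and 41.7% of all tested genes), and after cyclic loess 8 and 23 (26.6% and 25.3%), and the median of the members went from -0.32 to 0.10 and 0.25. Library totals moved the median of all tested genes from 0.11 to 0.53, so only the order of the genes is described further. Strain, batch and experiment cannot be told apart here.

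At the low end were Spc25 (-1.73), Pttg1 (-1.58), Birc5 (-1.56), Mad2l1 (-1.43) and Ccnb1 (-1.11), which kept their sign under each setting run. Spc25 was at 446, 474 and 478 CPM in untreated libraries of experiment 1 and at 135, 140 and 145 CPM in those of experiment 2. Birc5 was at 1800, 1769 and 1840 against 570, 639 and 630 CPM. At the high end were Kif20a (1.26), Kif2c (0.95), Nek2 (0.89), Cdc20 (0.89) and Plk1 (0.69), which also kept theirs. Kif20a, Cdc20 and Plk1 were also the 3 genes with the lowest fold change with DCA, and Pttg1, near the low end between experiments, was the one that rose with DCA. The others at the ends did not share this pattern. At the low end Ccnb1 fell with DCA (-0.25), and Birc5 (-0.10), Mad2l1 (-0.03) and Spc25 (0.08) were not called. At the high end Kif2c (-0.09) and Nek2 (-0.18) were not called.

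Between genes, levels are compared per deposited length, on which they depend. That length equals the longest annotated transcript for Ccnb2 (1531 bases) and exceeds it for others, such as Anln (9063 against 4605 bases). Over all 12 libraries Ccnb2 had the highest level of the 44 at 458 RPKM, followed by Birc5 at 346 RPKM, and Espl1 the lowest at 1.88 RPKM, below Anln at 4.56 RPKM. In untreated cells Ccnb2 was at 609 ± 71.5 RPKM (SD, n = 3) in experiment 1 and 373 ± 19.8 RPKM in experiment 2. Birc5 was at 530 ± 10.43 RPKM in experiment 1, near Ccnb2, and at 180 ± 11.02 RPKM in experiment 2, where Cdc20 (183 ± 5.46 RPKM) was within the spread around it and the range of Ube2c (194 ± 12.9 RPKM) overlapped with it. Ccnb2 itself was at 886, 852 and 1057 CPM untreated and 859, 759 and 873 CPM with DCA in experiment 1, and at 553, 556 and 606 against 479, 466 and 476 CPM in experiment 2. Its arms overlapped in experiment 1 and not in experiment 2.

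Base composition moved with these values. The GC content of the members' longest transcripts ran from 34.8% (Ncapg) to 56.1% (Espl1), and Plk1 and Cdc20, at 56.0% and 55.6%, were near the top. Across the 44 genes, the fold change with DCA had a Spearman correlation of -0.44 with GC content and 0.42 with transcript length, and across 15148 tested genes the first was 0.018. For untreated cells of experiment 2 against experiment 1 the correlation with GC content was 0.432 across the members and 0.3 across all genes. These are descriptions across genes that share the same libraries. After GC and length trends were taken out of each library (limma), the same 17 members were called lower and Pttg1 higher. With a term per mouse as well, 13 were called lower and 1 higher. These trends were fitted over all genes, across which the fold change with DCA had a correlation of 0.018 with GC content. Removing them therefore does not address the correlation of -0.44 across the members, and a part of base composition in it was not tested.

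**Figure D5:**
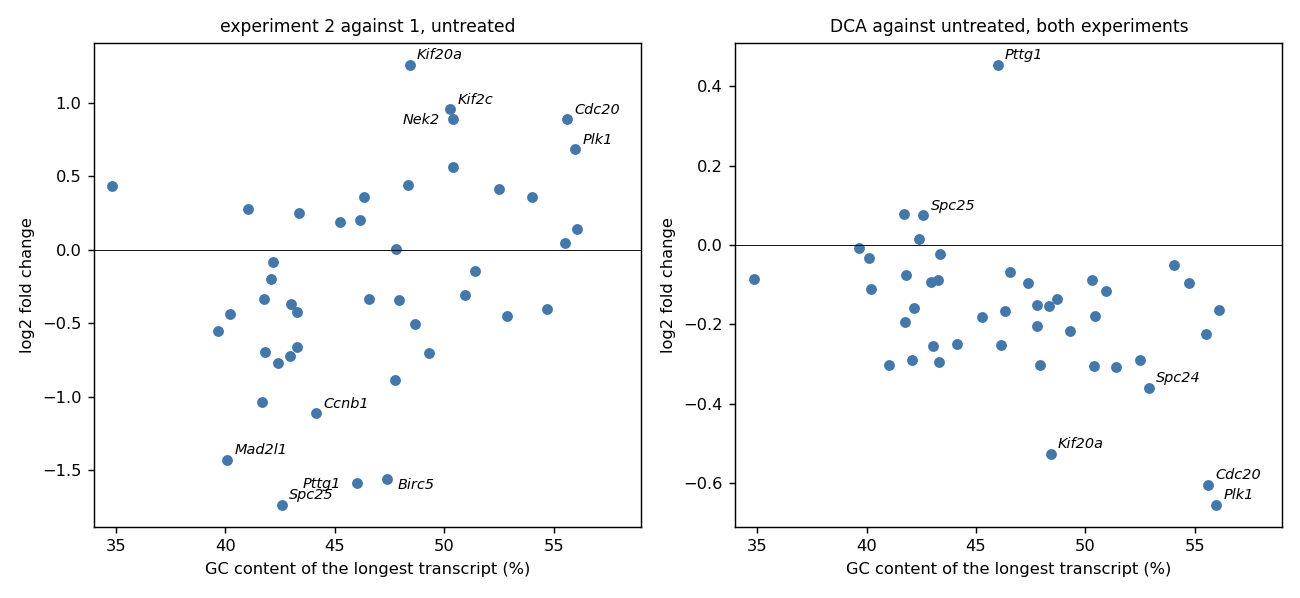
Log2 fold change of each of the 44 genes (vertical) by the GC content of its longest transcript (horizontal, percent), for untreated cells of experiment 2 against experiment 1 (left) and for DCA against untreated over both experiments (right). Plk1 and Cdc20 sit at high GC content in both panels, above 0 on the left and lowest on the right.

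Other genes of the pathway were taken from lists written out by role. Counts of the main fit are to be read against the 9.8% lower and 7.01% higher of all tested genes. For counts with library totals these shares were 5.09% and 10.7%, and after cyclic loess 6.6% and 7.85%. With a term per mouse they were 7.4% and 5.95%. Of 37 other kinetochore and centromere genes, 7 fell and none rose (median -0.12), and 3 fell and 2 rose with library totals. Pmf1, a subunit of the Mis12 complex, fell from 128 ± 30.0 to 96.7 ± 9.25 CPM (SD, n = 6; -0.38, adjusted p = 0.00308). Of 30 other spindle and cytokinesis genes, 11 fell and 1 rose (median -0.19), and 3 fell and 1 rose with library totals. Tacc3, a spindle microtubule protein, fell from 377 ± 21.8 to 292 ± 35.3 CPM (SD, n = 6; -0.38, adjusted p = 0.00033), and the chromosome kinesin Kif22 fell by 0.54 (adjusted p = 0.000975). Psrc1, a spindle microtubule protein, rose from 27.8 ± 5.46 to 70.8 ± 26.2 CPM (1.27, SE 0.16, adjusted p = 0.000238).

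Of 17 anaphase-promoting complex genes, 5 fell and none rose: the subunits Cdc16 (-0.54, adjusted p = 0.000975), Anapc5, Anapc15 and Cdc23, and the chain-extending enzyme Ube2s (-0.59, adjusted p = 0.00337). With library totals Cdc23 was not called (adjusted p = 0.0567), nor was Anapc5 after cyclic loess (0.0998). Of 16 cohesin and other condensin genes, Smc3 (-0.24, adjusted p = 0.00458) and Ncaph2 (-0.22, adjusted p = 0.0193) fell and the acetyltransferase gene Esco1 rose (0.22, adjusted p = 0.0287). That is 12.5% lower, near the share of all genes. With library totals neither fall was called, and with a term per mouse Esco1 was not (adjusted p = 0.0699). Of 14 mitotic entry regulators, 4 fell: Cks1b (-0.20, adjusted p = 0.0115), Arpp19 (-0.22, adjusted p = 0.0124), Cdc25c and Bora. None of these 4 was called with library totals, and Bora was not with a term per mouse (adjusted p = 0.0716). Gtse1, a G2 and S phase microtubule protein of this list, named after its values were seen, differed between the experiments (1.05, SE 0.16, adjusted p = 0.0146). It was at 29.6 ± 1.61 CPM untreated and 23.5 ± 3.94 CPM with DCA in experiment 1 (SD, n = 3; adjusted p = 0.0626), and rose from 71.6 ± 4.62 to 118 ± 5.05 CPM in experiment 2 (adjusted p = 0.0031).

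Of 21 genes of the DREAM, MuvB, FOXM1 and E2F families, 2 fell and 3 rose, and the 9.52% lower is near the share of all genes (median -0.024, and 0.08 with library totals). E2f4, the E2F of the DREAM repressor, fell from 282 ± 60.2 to 205 ± 82.4 CPM (-0.53, SE 0.11, adjusted p = 0.00423), and Rbbp4 by 0.23 (adjusted p = 0.0213). Rbl2, the p130 pocket protein of the same repressor, rose from 26.1 ± 6.03 to 47.1 ± 13.7 CPM (0.83, SE 0.08, adjusted p = 4.91e-05). Tfdp2 rose by 0.40 (adjusted p = 0.0291) and Rb1 by 0.47 (adjusted p = 0.0375). With a term per mouse 1 fell and 2 rose, as Rbbp4 (adjusted p = 0.0565) and Rb1 (0.0735) were no longer called, and Rbbp4 also had 0.151 with library totals and 0.235 after cyclic loess. The activators Foxm1 (17.6 ± 4.06 and 19.0 ± 3.39 CPM, 0.13, adjusted p = 0.566) and Mybl2 (27.6 ± 13.5 and 22.5 ± 9.46 CPM, -0.25, adjusted p = 0.195) did not pass.

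Of 14 tested G1 cyclins, kinases and CDK inhibitors, 4 fell: Cdk4 (-0.32, adjusted p = 0.00267), Cdkn2d (-0.23, adjusted p = 0.00619), Ccnd3 and Ccne1. Cdkn2d had an adjusted p of 0.101 with library totals and 0.244 after cyclic loess, and Ccne1 0.0552 after cyclic loess. Cdkn1a, which encodes the CDK inhibitor p21, rose with DCA in both experiments, from 192 ± 24.0 to 323 ± 35.1 CPM (SD, n = 3) in the first and from 285 ± 31.3 to 528 ± 28.9 CPM in the second. Over both the fold change was 0.82 (SE 0.08, adjusted p = 3.12e-05). Cdkn1b, the p27 gene, had 0.52 (adjusted p = 0.0608), and Cdkn2c, the p18 gene, -0.21 (adjusted p = 0.349).

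DNA replication genes, which are transcribed earlier in the cycle, were set beside the mitotic ones. Of 50, 20 fell and none rose (40%), with 47 below 0 and a median of -0.18, close to the 17 of 44 (38.6%) and -0.16 of the mitotic genes. With library totals these counts were 11 of 50 and 10 of 44, and after cyclic loess 9 of 50 and 9 of 44. Pold2, a subunit of DNA polymerase delta, fell from 219 ± 11.2 to 148 ± 26.5 CPM (SD, n = 6; -0.59, adjusted p = 0.000564), and the ribonucleotide reductase gene Rrm1 fell by 0.30 (adjusted p = 0.00141, and 0.0626 after cyclic loess). Between 35 and 46 of the 50 genes had a lower CPM with DCA in each mouse.

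Among markers of other cells, the B cell sum was higher with DCA in both experiments and the myeloid sum in experiment 1, without overlap. The arms overlapped for the myeloid sum in experiment 2 and for the natural killer sum in both experiments. The red cell marker sum stayed at or below 1.89 CPM in every library. In experiment 1, 6 B cell markers summed to between 12.6 and 18.2 CPM in untreated and between 27.3 and 38.2 CPM in DCA libraries, and in experiment 2 to between 24.0 and 26.9 and between 33.3 and 38.5 CPM. Cd79b made up nearly all of it, and Cd79a, Ms4a1, Pax5 and Cd22 were at or below 0.348 CPM in every library. The 8 myeloid markers summed to 8.10 to 11.1 and 11.8 to 30.7 CPM in experiment 1 and to 8.18 to 17.1 and 16.6 to 19.7 CPM in experiment 2, mostly Cd68, with Lyz2, Csf1r, Itgam, Adgre1 and Csf3r at or below 0.447 CPM. The part of these cells in the results was not tested. No marker had 0 counts in all 12 libraries. Natural killer markers summed to 40.0 to 60.4 and 37.4 to 43.4 CPM in experiment 1 and to 7.33 to 8.39 and 3.13 to 11.97 CPM in experiment 2. Eomes, which activated CD8 T cells also express, had the highest group means, 37.8 untreated and 24.7 CPM with DCA in experiment 1, and 6.40 and 3.10 CPM in experiment 2. Tyrobp went the other way, from 1.27 to 5.27 CPM and from 0.528 to 2.63 CPM. Klrb1c was at 8.45 and 9.93 CPM in experiment 1 and at 0.766 and 0.715 CPM in experiment 2.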

How the data were processed

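RNA sequencing of 12 libraries from 6 mice gave 1 deposited table of raw counts by gene. The build GRCm39 and the tools STAR 2.7.10a, fastp 0.23.2 and edgeR 3.36.0 are named in the submitters' processing notes. The read counter, the annotation and the use of strand were not given in the sources used here. The authors' deposited comparison of DCA with untreated cells gives, per the file headers, log2 fold changes, log2 CPM, p-values and false discovery rates for 15067 genes, and gene lengths. Its design is not given in the sources used here.

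From the counts, edgeR 4.0.16 (R 4.3.3) fitted quasi-likelihood models with TMM factors after filterByExpr over the 4 groups, which kept 15688 of 56748 genes. DCA over both experiments was tested with a term for experiment, and the other comparisons as contrasts of 1 fit over the 4 groups. P-values were adjusted by Benjamini-Hochberg over all tested genes and called under 0.05. Intervals are 95% and come from the same fits. P-values rest on the spread of each gene around its fitted values, estimated over all 12 libraries, with 3 mice per group. Fits without a term per mouse treated the arms of a mouse as independent. RPKM divides TMM-scaled CPM by the deposited length and serves to compare genes. Alternatives used limma 3.58.1 (log2 CPM with a prior count of 2) and DESeq2 1.42.0. Marker sums are CPM of unscaled library totals. Scripts were tested on simulated counts with known changes. The simulated libraries had no pairing by mouse and no difference in scaling between the arms. That test therefore does not bear on calls that depend on either.

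Each mouse gave both arms, so replicate numbers pair the libraries. Deviations from the group means over all tested genes correlated at 0.0443 to 0.0834 for libraries of the same mouse and at -0.0689 to -0.00438 for those of different mice.

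The members and all gene lists were chosen with earlier results of these data known. Values per library are given for the 2 to 4 members of each role with the smallest adjusted p and for those with the highest and lowest RPKM. Other members are named with summary values, and Mki67, Spc25 and Birc5 are also shown per library. From each list of other genes, up to 2 that rose and 2 that fell are named by adjusted p, with Foxm1, Mybl2, Cdkn1a, Cdkn1b and Cdkn2c in any case. Anapc5, Anapc15, Cdc23, Cdc25c, Bora, Gtse1, Rb1, Ccnd3 and Ccne1 were named after their values were seen, mostly to complete short counts. Some genes that this rule would name are not reported here. Promoters, GC content and overlaps come from RefSeq and GENCODE annotation of GRCm38, another build than that of the counts, and were joined by gene.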

Additional observations from a re-analysis of the deposited data

How the results depend on the processing

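Of the single-gene values recomputed under other settings, 1676 kept their direction and their side of the threshold, 159 lost the call, 14 gained one and 39 changed sign. With library totals, calls over both experiments went from 17 lower and 1 higher to 10 and 2 (median -0.062), the median of experiment 1 to -0.022, and experiment 2 to 2 lower (median -0.056). Experiment 2 against 1 went to 12 lower in untreated cells (median 0.10) and 13 lower in DCA cells (median 0.15), a change of sign in both. Fold changes with DCA then above 0 were Incenp 0.0050, Birc5 0.0035, Mad2l1 0.067, Cenpe 0.0056, Cenpf 0.013, Kif2c 0.0092, Nusap1 0.025, Ncapd2 0.049, Ncapg 0.011, Smc2 0.092, Top2a 0.077 and Mki67 0.033. After cyclic loess, calls over both experiments were 9 lower and 2 higher (median -0.057), experiment 1 had 7 lower (median 0.0028, a change of sign) and experiment 2 had 2 lower (median -0.054). Experiment 2 against 1 had 8 lower and 23 higher in untreated cells (median 0.25) and 8 lower in DCA cells (median 0.22). Values then above 0 were Birc5 0.067, Mad2l1 0.11, Cenpa 0.015, Cenpe 0.037, Cenpf 0.032, Nusap1 0.071, Ncapd2 0.042, Ncapg 0.012, Smc2 0.13, Smc4 0.037, Top2a 0.12, Mki67 0.061 and Cdca3 0.015. With the stricter filter (at least 5 CPM in 3 libraries), Mad2l1 was at 0.012, Smc2 at 0.037 and Top2a at 0.022, the median of experiment 1 was -0.075 and that of untreated cells -0.27. The cause of these shifts was not tested.

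DESeq2 gave 12 lower in experiment 2, where 5.7% of all tested genes were. It called 2 genes higher for the difference between experiments, where 2.03% of all tested genes were. Limma-voom, limma on TMM log2 CPM and the fit with no filter on low counts gave 1 such gene each, where 0.446%, 0.338% and 0.978% of tested genes were called higher. The fit with no filter gave 4 lower in experiment 2, where 1.17% of tested genes were. The fits on the 6 libraries of 1 experiment gave 10 lower in each experiment, and a median of -0.089 in experiment 1. Removing GC and length trends (an alternative chosen after seeing the data, as was limma on TMM log2 CPM) gave medians of -0.19 for untreated and -0.081 for DCA cells of experiment 2 against 1. With no experiment term, 0 were called lower and 0 higher (edgeR). With the replicate block, a term per mouse, the paired fit gave 15 lower and 1 higher over both experiments and 15 lower in experiment 1, but 2 lower in experiment 2.

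Leaving out each library in turn gave 14 to 18 lower and 1 higher over both experiments (median -0.18 to -0.13), 11 to 17 lower in experiment 1 (median -0.25 to -0.11) and 1 to 8 lower and 0 to 1 higher in experiment 2 (median -0.21 to -0.11). The difference had 0 lower and 0 to 2 higher. Experiment 2 against 1 had 19 to 24 lower and 10 to 14 higher in untreated cells (median -0.32 to -0.22), and 20 to 23 lower and 11 to 15 higher in DCA cells (median -0.24 to -0.16). Signs changed for Ndc80 (-0.013 to 0.061), Smc2 (-0.023 to 0.035), Top2a (-0.083 to 0.013) and Mad2l1 (-0.055 to 0.013).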
